A study of Sus scrofa with 18 samples.

Results

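Pig kidneys that had been transplanted with carbon monoxide (CO) and sampled at 24 h were compared with naive pig kidneys, to ask which transcripts differed in the CO-treated graft at that time. Arrays were chosen by the source field of the labels, which gave 4 arrays of CO-treated grafts at 24 h (donors 5 to 8) and 2 arrays of naive kidneys, 6 of the 18 arrays in the series. Naive kidneys were not transplanted and carry no time and no donor number. Total RNA of each kidney was hybridised to 1 Affymetrix pig array. The other 12 arrays hold untreated grafts at 24 h from the same donors 5 to 8, and CO-treated and untreated grafts at 4 h from donors 1 to 4, with 4 arrays in each group. Source and title name CO for the CO-treated grafts while their treatment field reads air, as in the untreated grafts, and source and title were followed. Whether CO was given to donor, organ or recipient, and its dose, is not stated in the labels, nor are breed, sex and age. Numbers in the file names of the naive arrays recur in those of the donor 4 arrays, so the naive kidneys may come from that animal pair, which the tests ignore.

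A transplanted kidney is without blood flow for a time and is then reperfused, which injures the proximal tubule most, because that segment depends on mitochondrial oxidation of fatty acids to drive its transport. Injured tubule cells lose transporters and metabolic enzymes, take on an injury programme with secreted factors and keratins, draw in leukocytes and may re-enter the cell cycle. CO is made in cells when heme oxygenase breaks down heme, and at low doses it is studied as a protective gas in transplantation.

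Values are log2 signals per probe set, so a difference of 1 is a 2-fold, of 2 a 4-fold and of 3 an 8-fold change, and errors after ± are standard errors from limma. A probe set was called when its limma p, adjusted by Benjamini-Hochberg over 23999 probe sets, was below 0.05. Of these, 2804 were called between CO-treated grafts at 24 h and naive kidneys (11.7%), 1380 of them higher (5.75%) and 1424 lower (5.93%) in the grafts. Among the 1380 higher ones 831 differed by more than 2-fold, 185 by more than 4-fold and 24 by more than 8-fold, and among the 1424 lower ones 968, 242 and 45 did. The higher ones had a median naive level of 5.06 and the lower ones of 6.40. Over all probe sets the median change was -0.02. With each array centred on its median the split was 1119 higher and 1687 lower, with a median change of -0.10. With 1 probe set per gene, the brightest, 1269 of 6765 named genes were called (18.8%), 708 higher (10.5%) and 561 lower (8.29%), and gene lists below are read against these last 2 shares.

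Arrays fall into dates given in their file names, and no date holds both a naive and a CO 24 h array. With the date as a fixed block 0 probe sets were called (2316 at an unadjusted p under 0.05, limma, smallest adjusted p 0.125). Of the 2804, 2801 kept their direction, with a median change of 1.08 with the block against 1.19 without it and a median standard error of 0.479 against 0.281. The 2804 were picked in these same arrays, so the kept direction is no separate support. Of the 24 h arrays, only the untreated array of donor 5 shares a date with a naive array, and the blocked estimate rests on it. The CO array of donor 6 is alone in its date and adds nothing to that estimate. No comparison within a date was possible, and every list count below was 0 with that block. The count also rests on each naive array, since 459 probe sets were called with naive array 1 left out and 743 with naive array 2 left out. Leaving out the CO array of donor 7 gave 1731.

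The 4 CO-treated grafts were not alike. On the first principal component of all 18 arrays, with 36.5% of the variance, the CO array of donor 8 stood at 17.0 and those of donors 5, 6 and 7 at 42.4, 53.5 and 55.4, against -43.7 and -29.6 for the naive arrays. Among the 1380 higher probe sets that array was the nearest of the 4 to the naive mean in 57.2%, and among the 1424 lower ones in 50.4%. The untreated 24 h array of donor 8 stood at 15.1 on the same component, next to its CO partner. Of the kidney markers sought, LRP2 and MIOX were measured, and both were well above background in every array of both groups. UMOD, CUBN, SLC12A1, AQP2 and CALB1 were not analysed here.

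**Figure D1:**
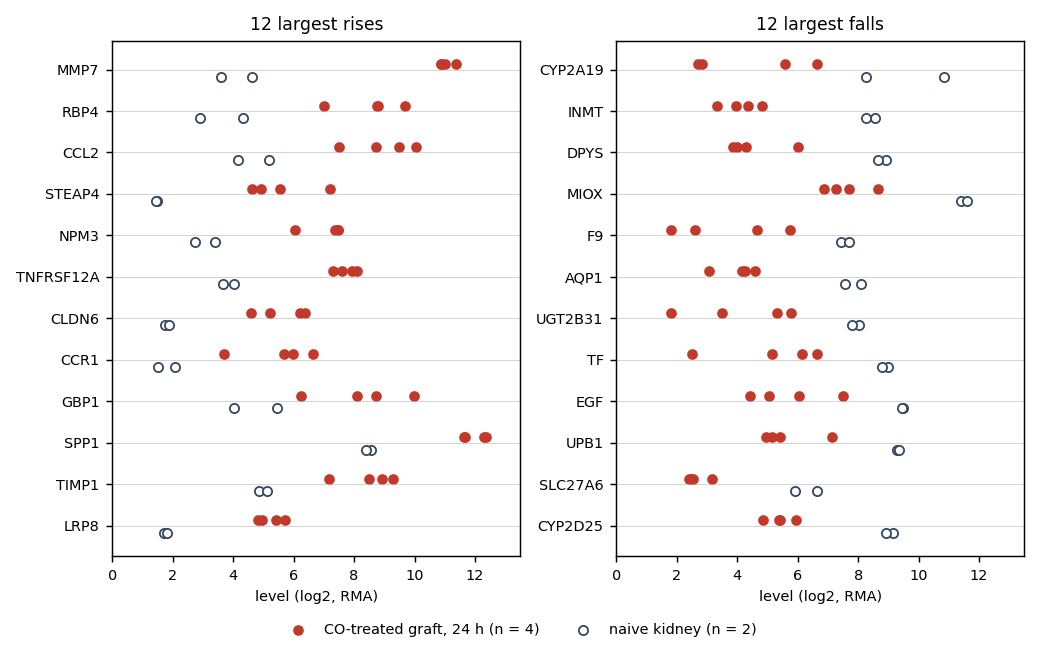
The 12 largest rises and 12 largest falls among named genes that passed the test and whose groups did not overlap, with each array as a point on the log2 signal axis. CO-treated grafts at 24 h (n = 4) are drawn with naive kidneys (n = 2), and each gene shows the grafts on one side of both naive arrays.

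The largest rise was that of MMP7, matrilysin, a protease secreted by injured tubules. MMP7 stood at 11.38, 10.88, 10.87 and 10.99 in the CO 24 h arrays (donors 5, 6, 7 and 8, in this order throughout) against 3.61 and 4.63 in the naive arrays. All 4 grafts lay close together and far above both naive kidneys, with a change of 6.91 ± 0.80 (limma, adjusted p = 0.000411). SPP1, osteopontin, a secreted glycoprotein of injured tubules, stood at 12.31, 11.66, 11.62 and 12.37 in the grafts against 8.55 and 8.40 in naive kidneys, a rise of 3.52 ± 0.51 (adjusted p = 0.000894). TIMP1, an inhibitor of matrix metalloproteases, stood at 8.49, 8.92, 9.30 and 7.18 in the grafts against 4.87 and 5.11 in naive kidneys, a rise of 3.48 ± 0.86 (adjusted p = 0.0157), with donor 8 lowest of the grafts. TNFRSF12A, the receptor of the cytokine TWEAK, stood at 7.59, 8.08, 7.94 and 7.30 in the grafts against 4.03 and 3.67 in naive kidneys, a rise of 3.87 ± 0.67 in the probe set of largest change.

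Of 20 measured tubular injury markers, 12 rose, 2 fell and 6 did not pass, with a median change of 1.96. The 12 rises ran from 1.62 to 6.91 and include, beside those above, CLU, the chaperone clusterin (3.02), ANXA2, a membrane-binding annexin (2.95), and the epithelial keratins KRT18 (2.78) and KRT8 (1.62). The falls were those of VNN1, pantetheinase of the proximal tubule, at 3.98, 3.35, 2.96 and 4.95 in the grafts against 7.69 and 7.20 in naive kidneys (-3.63 ± 0.84), and of PROM1, a membrane glycoprotein of progenitor cells (-1.32). With either naive array left out the list had 5 rises and 0 falls. CLDN6, a claudin of embryonic epithelia, stood at 5.23, 6.22, 6.36 and 4.60 in the grafts against 1.74 and 1.89 in naive kidneys and rose by 3.79 ± 0.48 (adjusted p = 0.000457). Among 13 epithelial junction genes it was the only rise, and GJB1, a gap junction connexin, was the only fall (-1.79 ± 0.44), which did not pass with either naive array left out.

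LRP8, an apolipoprotein E receptor, stood at 4.97, 5.41, 5.70 and 4.83 in the grafts against 1.72 and 1.82 in naive kidneys (change 3.45 ± 0.71). NPM3, a nucleolar chaperone, stood at 7.37, 7.48, 7.48 and 6.06 in the grafts against 2.72 and 3.41 in naive kidneys (change 4.03 ± 0.70), with donor 8 apart from the other 3 grafts. RBP4, the plasma carrier of retinol, stood at 9.68, 8.77, 8.80 and 7.00 in the grafts against 4.32 and 2.89 in naive kidneys (change 4.96 ± 0.70). These RBP4 values are from its probe set of largest change, while gene lists use the brightest one. The probe sets of RBP4 disagree, since the other one changed by -0.95 and did not pass (adjusted p = 0.295).

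The falls were led by genes of the proximal tubule, the segment that reabsorbs most of the filtrate. MIOX, which opens myo-inositol in the first step of its breakdown, stood at 7.71, 7.25, 6.87 and 8.67 in the grafts against 11.41 and 11.59 in naive kidneys. The grafts lay below both naive kidneys with no overlap, donor 8 nearest to them, with a change of -3.87 ± 0.49 (adjusted p = 0.000457). DPEP1, a brush border dipeptidase, stood at 6.19, 6.74, 6.47 and 6.07 in the grafts against 9.77 and 9.77 in naive kidneys, with a change of -3.40 ± 0.42 (adjusted p = 0.000455). UPB1, the last enzyme of pyrimidine breakdown, stood at 5.42, 5.15, 4.96 and 7.14 in the grafts against 9.28 and 9.35 in naive kidneys (change -3.65 ± 0.62). DPYS, an earlier enzyme of the same pathway, stood at 4.30, 3.86, 3.98 and 6.02 in the grafts against 8.91 and 8.67 in naive kidneys (change -4.25 ± 0.59). Its 2 other probe sets were below background in both groups, changed by 0.02 and -0.26 and did not pass. In a bulk sample a lower value can mean fewer tubule cells or less RNA per cell, and these cannot be told apart.

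Of 20 measured proximal tubule enzymes 16 fell and 0 rose, with a median change of -2.46. In 19 of the 20 the grafts lay below both naive kidneys, against 20.4% of all probe sets, with or without a gene symbol. The share among named genes alone was not computed. Of 16 proximal tubule transporters 8 fell and 0 rose, with a median of -1.65. In 13 of these 16 the grafts lay below both naive kidneys, and in 2 they lay above both. The enzymes include BHMT of methionine synthesis (-3.38), DAO, D-amino acid oxidase (-3.23), AGMAT, agmatinase (-3.16), FBP1 of gluconeogenesis (-2.06) and the brush border peptidase ANPEP (-1.96). SLC22A6, the basolateral organic anion transporter, stood at 3.06, 4.19, 3.34 and 5.33 in the grafts against 7.41 and 7.59 in naive kidneys (change -3.52 ± 0.61, adjusted p = 0.0026). LRP2, megalin, the endocytic receptor for filtered protein, stood at 7.81, 7.31, 7.75 and 8.56 in the grafts against 10.20 and 10.09 in naive kidneys (change -2.29 ± 0.48), and another probe set of it changed by -1.51 (adjusted p = 0.066). AMN, the partner that carries cubilin to the membrane, changed by -2.75 ± 0.43, and SLC15A2, the high-affinity peptide transporter, by -2.42 ± 0.39. AQP1, the water channel of proximal tubule and thin limb, stood at 4.14, 4.26, 3.08 and 4.60 in the grafts against 8.10 and 7.58 in naive kidneys in its probe set of largest change (-3.82 ± 0.56) and changed by -2.25 in its brightest one. Leaving out naive array 1 or 2 gave 9 and 10 enzymes and 4 and 5 transporters. Leaving out any 1 CO array gave 16 to 17 enzymes and 8 to 9 transporters.

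Distal segments were less well covered. EGF, made in the thick ascending limb and distal convoluted tubule, stood at 6.04, 5.04, 4.41 and 7.50 in the grafts against 9.48 and 9.45 in naive kidneys (change -3.72 ± 0.60, adjusted p = 0.00174). It was 1 of 5 loop and distal nephron genes that fell, of 7 measured with a median of -0.96, the others being HSD11B2, which inactivates cortisol in aldosterone target cells (-1.51), FXYD2, a subunit of the sodium pump (-1.36), and the sodium channel subunits SCNN1A (-0.96) and SCNN1B (-0.96). With naive array 1 or 2 left out, there were 1 and 2 such genes, and leaving out the CO array of donor 5, 6 or 7 gave 3. Of 7 intercalated cell and proton pump genes 1 fell, ATP6AP2, the prorenin receptor (-1.14 ± 0.23), and of 2 podocyte genes neither passed, with WT1 at 4.03, 4.53, 4.90 and 3.73 in the grafts against 5.52 and 5.24 in naive kidneys (adjusted p = 0.23). The fall of ATP6AP2 was lost with naive array 1 left out, and its list had 3 falls without the untreated 4 h array of donor 1 and 4 with the fit held to the compared groups.

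Genes of fatty acid oxidation and ketone use fell in 16 of 29 cases and rose in 0, with a median change of -1.07. PHYH, which starts the breakdown of branched fatty acids in peroxisomes, stood at 9.36, 7.91, 7.50 and 7.63 in the grafts against 11.30 and 10.08 in naive kidneys (change -2.59 ± 0.50). ACAA1, the peroxisomal thiolase, stood at 7.95, 7.44, 7.47 and 8.50 in the grafts against 9.93 and 9.85 in naive kidneys (change -2.05 ± 0.40), and ECI1, a mitochondrial enoyl-CoA isomerase, changed by -1.92 ± 0.25. Mitochondrial acyl-CoA dehydrogenases of medium, long and short chains were all in the group that fell, with ACADM at -1.28, ACADL at -1.45 and ACADS at -1.67. SLC27A6, a fatty acid transport protein, stood at 2.48, 2.39, 2.52 and 3.16 in the grafts against 6.64 and 5.92 in naive kidneys, below both with no overlap (change -3.64 ± 0.53). Leaving out naive array 1 or 2 gave 5 and 8 falls.

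The tricarboxylic acid cycle and the respiratory chain moved less. Of 20 tricarboxylic acid cycle genes 5 fell and 0 rose, with a median of -0.45, and they hold 3 subunits of succinate dehydrogenase, SDHC (-1.78 ± 0.25), SDHA (-0.99 ± 0.18) and SDHB (-0.67), with SUCLG2 of succinyl-CoA ligase (-1.32) and PDHA1 of pyruvate dehydrogenase (-1.19). Leaving out naive array 1 gave 1 fall, and leaving out naive array 2 or the CO array of donor 6 or 7 gave 3. Of 30 respiratory chain genes 2 fell, the complex I subunits NDUFV1 (-0.90 ± 0.20) and NDUFA10 (-0.81 ± 0.22), with a median of -0.13, and 0 fell with either naive array left out. Of 24 hypoxia and glycolysis genes 5 rose and 0 fell, with a median of 0.21. Among the rises LDHA, which makes lactate, stood at 9.14, 8.81, 8.70 and 9.56 in the grafts against 6.87 and 6.72 in naive kidneys (2.26 ± 0.44). The other rises were SLC2A3, a glucose transporter (2.41 ± 0.73), ENO1 and GAPDH of glycolysis (0.98 and 0.48), and HIF1A (0.94). The 3 other probe sets of HIF1A, an oxygen-regulated transcription factor, did not pass. The count of rises was 0 with either naive array left out and 3 without the CO array of donor 6, 7 or 8 or with median centring.

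Amino acid breakdown genes fell in 16 of 23 cases and rose in 0, with a median of -1.43. HAAO, of the tryptophan to quinolinate pathway, stood at 6.02, 5.08, 5.46 and 6.08 in the grafts against 8.29 and 8.37 in naive kidneys (change -2.66 ± 0.42), and ASS1, the argininosuccinate synthase of arginine production, at 9.92, 9.69, 9.03 and 10.43 in the grafts against 12.14 and 12.01 in naive kidneys (change -2.31 ± 0.42). Subunits and enzymes of branched-chain amino acid breakdown fell too, among them BCKDHB (-2.38), BCKDHA (-1.43), IVD (-1.64), MCCC2 (-2.05) and PCCA (-1.91), as did ARG2, mitochondrial arginase (-2.17). With naive array 1 or 2 left out, there were 2 and 10 falls.

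Of 23 drug and xenobiotic metabolism genes 11 fell and 0 rose, with a median of -1.62. CYP2A19, a pig cytochrome P450, showed the largest fall of all named genes, at 5.58, 2.72, 2.83 and 6.64 in the grafts against 10.83 and 8.26 in naive kidneys (change -5.10 ± 1.52, adjusted p = 0.0383), and its grafts spread widely, with donors 6 and 7 low and donors 5 and 8 higher. INMT, an indolethylamine methyltransferase, stood at 4.36, 3.32, 3.96 and 4.81 in the grafts against 8.54 and 8.26 in naive kidneys (change -4.29 ± 0.62, adjusted p = 0.000833). UGT2B31, a glucuronosyltransferase, changed by -3.82 ± 0.94, and CYP2D25, a vitamin D 25-hydroxylase in the pig, by -3.64 ± 0.67, while another CYP2D25 probe set changed by 0.23 and did not pass. Leaving out naive array 1 or 2 gave 1 and 5 falls, and leaving out the CO array of donor 5, 6 or 7 gave 7, 6 and 6. Among single genes of plasma proteins that fell, F9, coagulation factor IX, stood at 4.66, 1.81, 2.59 and 5.76 in the grafts against 7.43 and 7.68 in naive kidneys (-3.86 ± 0.88). TF, transferrin, stood at 2.50, 6.14, 5.15 and 6.63 in the grafts against a mean of 8.90 ± 0.14 (SD, n = 2) in naive kidneys (-3.80 ± 1.00, and -1.42 in another probe set that did not pass). APOM, a carrier of sphingosine phosphate, changed by -3.12 ± 0.52 and was the 1 call among 18 lipid, retinol and plasma carrier genes, whose median was -0.10.

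**Figure D2:**
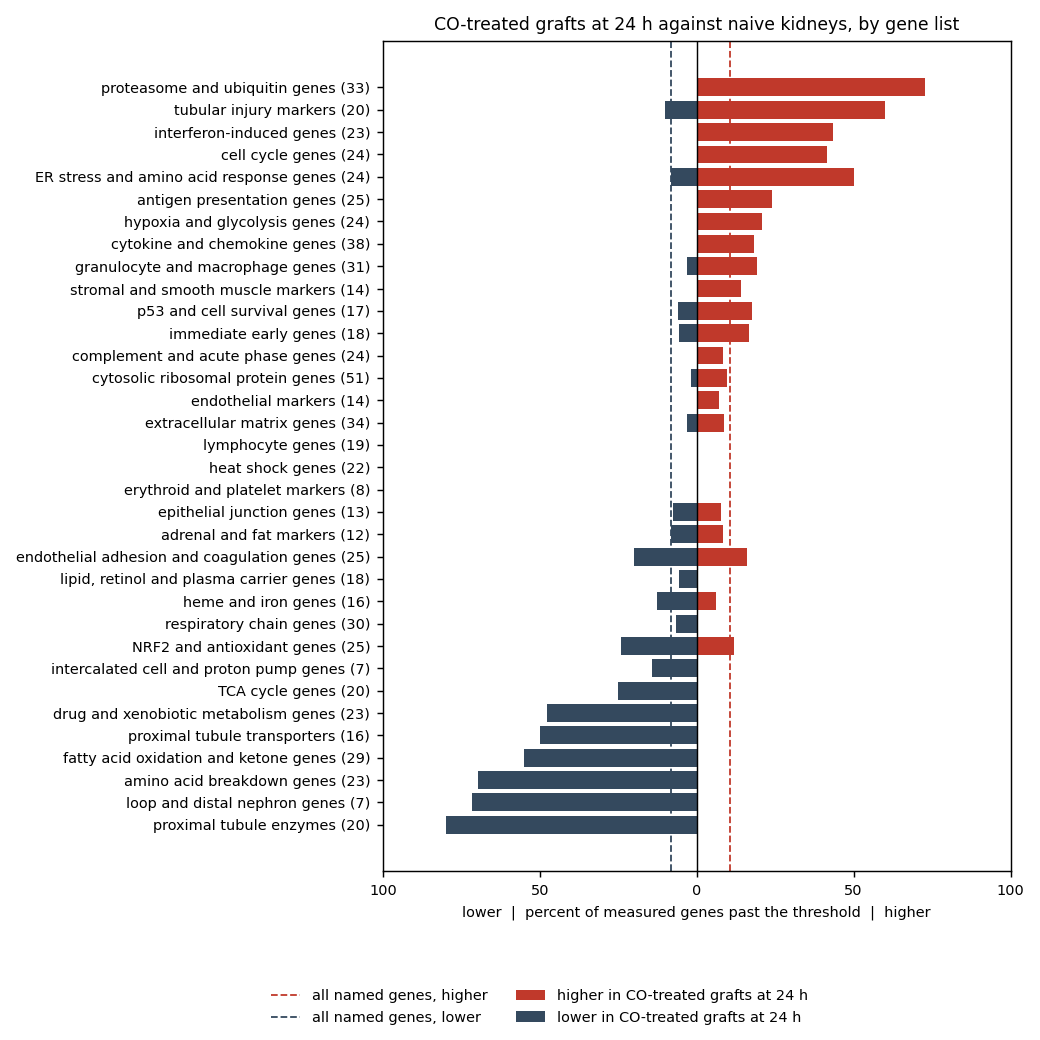
For each gene list but the podocyte genes, of which 2 were measured, the share of measured genes that were called higher and called lower in CO-treated grafts at 24 h against naive kidneys (limma, adjusted p under 0.05), with the shares over all 6765 named genes as lines at 10.5% and 8.29%. Proximal tubule enzymes, amino acid breakdown and fatty acid oxidation genes stand out on the lower side and proteasome and tubular injury genes on the higher side.

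Proteasome and ubiquitin genes rose together, 24 of 33 with 0 falls and a median of 0.84. They hold core subunits such as PSMB3, at 6.95, 6.13, 6.59 and 5.73 in the grafts against 4.50 and 4.90 in naive kidneys (1.65 ± 0.32), and PSMA5 (1.48 ± 0.29). Lid and base subunits rose as well, with PSMD14, the deubiquitinase of the lid, at 8.75, 8.23, 8.25 and 8.20 in the grafts against 6.65 and 6.95 in naive kidneys (1.55 ± 0.25), and PSMD1 at 1.54 ± 0.25. The rises were small, from 0.56 to 1.65. The grafts lay above both naive kidneys in 31 of 33 genes, against 18.7% of all probe sets, with or without a gene symbol. With naive array 1 or 2 left out, there were 6 and 12 rises, and leaving out any 1 CO array gave 18 to 26.

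Genes of the endoplasmic reticulum stress and amino acid response rose in 12 of 24 cases and fell in 2, with a median of 1.04. The rises were chaperones and folding enzymes, such as HSPA5 (BiP, 1.38), HYOU1 (1.48), DNAJB11 (1.35), PDIA4 (1.17) and MANF (1.20), with the transcription factors ATF4 (1.34) and CEBPB (1.91). CRELD2, an endoplasmic reticulum disulfide isomerase, stood at 6.61, 6.97, 6.47 and 5.66 in the grafts against 3.77 and 3.98 in naive kidneys (2.55 ± 0.46, adjusted p = 0.00293), and SDF2L1, a chaperone partner, at 6.21, 6.54, 5.70 and 5.57 in the grafts against 3.63 and 4.59 in naive kidneys (1.89 ± 0.45). The falls were the serine synthesis enzymes PHGDH (-2.28 ± 0.37) and PSAT1 (-1.52). There were 0 and 3 rises with naive array 1 or 2 left out.

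Of 22 heat shock genes 0 passed in either direction, with 4 at an unadjusted p under 0.05 (limma) and a median of 0.61. In 14 of the 22 the grafts lay above both naive kidneys, against 18.7% of all probe sets. The list mean per array was 7.76 to 8.05 in the grafts and 7.06 to 7.18 in naive kidneys. The test takes its spread from all 18 arrays, and this list mean varied most at 4 h. Its SD was 1.44 in untreated and 0.64 in CO-treated grafts at 4 h, against 0.12 in CO 24 h grafts. The untreated 4 h array of donor 1 stood at 7.10, inside the naive range, and those of donors 2, 3 and 4 at 9.85, 9.97 and 10.11. Genes that did not pass are thus not shown to be at the naive level, and their count without that donor 1 array is not given here. ZFAND2A, an arsenite-inducible chaperone adaptor, had the smallest p, at 7.24, 7.58, 6.97 and 5.23 in the grafts against 3.52 and 3.08 in naive kidneys (3.46 ± 1.17, adjusted p = 0.0666). HSP70.2, the inducible HSP70, stood at 9.25, 8.80, 8.45 and 9.71 in the grafts against 8.88 and 8.30 in naive kidneys, with overlap (0.47 ± 0.86, adjusted p = 0.796). Of 18 immediate early genes 3 rose and 1 fell: MYC (2.30 ± 0.51), IER5 (1.71 ± 0.45) and DUSP6 (1.00 ± 0.26) rose, and NR4A2 fell to 2.28, 2.90, 2.89 and 2.72 in the grafts, against 5.77 and 4.15 in naive kidneys (-2.26 ± 0.35). The rises of this list numbered 0 with either naive array left out and 5 without the untreated 4 h array of donor 1.

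Some chemokines and interferon-induced genes rose in the grafts. CCL2, which draws in monocytes, stood at 8.71, 10.04, 9.49 and 7.49 in the grafts against 4.15 and 5.18 in naive kidneys, and the grafts lay above both with donor 8 lowest (4.27 ± 1.08, adjusted p = 0.018). CCR1, a chemokine receptor of leukocytes, stood at 5.68, 6.65, 5.99 and 3.71 in the grafts against 1.50 and 2.09 in naive kidneys (3.71 ± 0.93). Of 38 cytokine and chemokine genes 7 rose and 0 fell, with a median of 0.84, the rest being CCL8 (2.80), TGFB1 (2.20), CXCL16 (1.92), IL1B (1.67) and IL4R (1.64). The count was 1 with either naive array left out, 4 without the CO array of donor 5, 6 or 7 and 11 without that of donor 8. CXCL8 was below background (1.61) in both naive arrays, at 0.77 and 1.15, and 3.08, 3.67, 3.73 and 2.12 in the grafts, a level at least 2.92-fold higher that did not pass the test (adjusted p = 0.0753). IL6 stood at 2.79, 1.89, 2.42 and 2.65 in the grafts against 1.97 and 1.14 in naive kidneys and TNF at 3.22, 4.50, 3.83 and 2.92 in the grafts against 3.20 and 3.12 in naive kidneys; both overlapped, and neither passed (adjusted p = 0.115 and 0.428).

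Of 23 interferon-induced genes 10 rose and 0 fell, with a median of 1.57. GBP1, a guanylate binding protein, stood at 9.24, 10.72, 9.88 and 7.58 in the grafts against 5.21 and 6.55 in naive kidneys in its brightest probe set (3.47 ± 0.85), and IRF1, a transcription factor of the response, at 7.64, 9.05, 8.33 and 6.84 in the grafts against 4.78 and 5.49 in naive kidneys (2.83 ± 0.62, adjusted p = 0.00826). ISG15, a ubiquitin-like modifier, stood at 7.78, 9.29, 9.33 and 8.23 in the grafts against 5.13 and 6.39 in naive kidneys (2.90 ± 0.48, adjusted p = 0.00197), and MX1 (2.50), RSAD2 (2.23), IFIT3 (2.15) and IFIT1 (1.52), antiviral effectors, rose too. With naive array 1 or 2 left out, there were 0 and 4 rises, without the CO array of donor 6 or 7 there were 5, and without that of donor 8 there were 14. Of 25 antigen presentation genes 6 rose and 0 fell, with a median of 0.96. They include the immunoproteasome parts PSMB8 (2.24 ± 0.67), PSMB10 (2.31 ± 0.55) and PSME2 (2.28 ± 0.39), the lysosomal protease CTSS (2.13 ± 0.29), and the swine class I genes SLA-6 (1.23) and SLA-7 (1.41), which resemble other class I genes in sequence, so their probe sets may share signal. There were 1 and 2 rises with naive array 1 or 2 left out, 3 without the CO array of donor 6 and 11 without that of donor 8.

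Leukocyte markers moved with these groups. Over 31 granulocyte and macrophage genes the mean level per array was 5.03, 5.92, 5.46 and 4.02 in the CO 24 h grafts against 3.52 and 4.09 in naive kidneys, so donor 8 lay inside the naive range. Of the 31 genes 6 rose and 1 fell, with a median of 1.56: CD163, the macrophage hemoglobin receptor, stood at 6.95, 7.33, 7.03 and 5.11 in the grafts against 3.25 and 4.06 in naive kidneys (2.95 ± 0.73), GP91-PHOX, the catalytic part of the phagocyte oxidase, changed by 2.75 ± 0.77 and TYROBP, a receptor adaptor, by 2.47 ± 0.73. CYBA, another part of that oxidase, fell (-1.79), a call lost with naive array 2 left out. The count of rises was 16 without the CO array of donor 8, 2 without that of donor 6 or 7, 3 without that of donor 5, 1 with either naive array left out and 10 without the untreated 4 h array of donor 1. Of 19 lymphocyte genes 0 passed (2 at an unadjusted p under 0.05, limma), with means per array of 3.44, 4.37, 3.98 and 2.64 in the grafts against 2.52 and 3.04 in naive kidneys. Of 24 complement and acute phase genes 2 rose, SAA2 (1.17 ± 0.26) and LBP (2.50 ± 0.59). Another probe set of each did not pass, and with either naive array left out 0 passed. The part of leukocyte content in the interferon, antigen presentation and chemokine results was not tested.

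Cell cycle genes rose in 10 of 24 cases with 0 falls and a median of 1.12. MCM2, a helicase subunit of replication licensing, stood at 6.97, 7.31, 7.07 and 6.20 in the grafts against 4.16 and 4.30 in naive kidneys, with all grafts above both (2.65 ± 0.34, adjusted p = 0.000482); of its 2 other probe sets 1 changed by 1.28 and passed and 1 by -0.11 and did not. RRM2, of deoxynucleotide synthesis, stood at 6.06, 5.29, 5.16 and 3.44 in the grafts against 2.58 and 2.12 in naive kidneys (2.64 ± 0.67) and TYMS, thymidylate synthase, at 6.38, 5.38, 5.23 and 4.71 in the grafts against 3.42 and 3.21 in naive kidneys (2.11 ± 0.40), while another TYMS probe set, near background, changed by -0.24. MCM3 (1.86), MCM5 (1.84), PCNA (1.50), AURKA (1.49) and CDC20 (1.44) rose as well. CDKN1A, the cyclin-dependent kinase inhibitor p21, rose alongside at 5.71, 6.89, 5.74 and 5.45 in the grafts against 3.77 and 4.10 in naive kidneys (2.02 ± 0.54, adjusted p = 0.0241). Of 17 p53 and cell survival genes it was 1 of 3 that rose, with BAX (0.91) and CASP1 (2.74), and TP53I3 fell (-1.40). With naive array 1 or 2 left out, there were 2 and 3 rises of cell cycle genes and 0 of the p53 list, whose rises numbered 0 without the CO array of donor 6 and 1 without that of donor 5 or 7.

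The heme oxygenase system, which makes CO in cells, showed no rise that passed. HMOX1, the inducible enzyme, stood at 6.30, 7.12, 6.70 and 6.14 in the grafts against 5.32 and 6.21 in naive kidneys, overlapping (0.80 ± 0.42, adjusted p = 0.245). HMOX2, the constitutive enzyme, fell, at 6.50, 6.75, 6.43 and 6.60 in the grafts against 7.76 and 7.73 in naive kidneys (-1.17 ± 0.25, adjusted p = 0.00749). BLVRA, which reduces the biliverdin that heme oxygenase makes, stood at 6.10, 5.70, 5.30 and 5.49 in the grafts against 6.44 and 6.51 in naive kidneys (-0.82 ± 0.36, adjusted p = 0.158) and FTL, ferritin light chain, at 12.68, 12.68, 12.72 and 12.66 in the grafts against 12.79 and 12.78 in naive kidneys (-0.10 ± 0.13, adjusted p = 0.686). STEAP4, a metalloreductase of iron and copper uptake, was below background in both naive arrays, at 1.48 and 1.46, and stood at 7.22, 5.53, 4.94 and 4.61 in the grafts, at least 15.6-fold higher (adjusted p = 0.00696). It was the 1 rise among 16 heme and iron genes, where TF and HMOX2 fell, and with either naive array left out 0 of these genes passed in either direction.

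NQO1, a quinone reductase and the standard target of the oxidant-sensing factor NRF2, stood at 9.81, 8.57, 9.09 and 8.48 in the grafts against 6.53 and 6.35 in naive kidneys, all grafts above both (2.55 ± 0.38, adjusted p = 0.000958). Of 25 NRF2 and antioxidant genes 3 rose, NQO1, TXN (0.97) and PRDX1 (1.33), and 6 fell, with a median of 0.12. The falls were catalase (CAT, -1.57 ± 0.35), MGST1, a microsomal glutathione transferase (-1.46 ± 0.36), MT1A, a metallothionein (-2.38 ± 0.67), the mitochondrial and peroxisomal peroxiredoxins PRDX3 (-1.30) and PRDX5 (-1.26), and GPX3, the plasma glutathione peroxidase that the proximal tubule secretes (-0.93). Leaving out naive array 1 or 2 gave 0 and 2 falls, and without the untreated 4 h array of donor 1 there were 5 rises.

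VCAM1, an adhesion molecule for leukocytes, stood at 9.33, 9.36, 9.21 and 8.37 in the grafts against 6.60 and 6.92 in naive kidneys (2.31 ± 0.63). ICAM1, another such molecule, stood at 7.01, 7.93, 7.46 and 6.55 in the grafts against 4.77 and 5.28 in naive kidneys (2.21 ± 0.45), and in both genes the grafts lay above naive kidneys with no overlap. Of 25 endothelial adhesion and coagulation genes 4 rose, VCAM1 and ICAM1 with PROCR (2.08) and ANGPT2 (1.27), and 5 fell, F9, ANGPT1 (-1.69), CTH (-2.01), F5 (-1.05) and PROS1 (-0.98), with a median of 0.47. Of 14 endothelial markers only PECAM1 rose (1.24 ± 0.34), and of 14 stromal and smooth muscle markers ACTA2, smooth muscle actin (2.44 ± 0.64), and TPM2, a tropomyosin (1.95 ± 0.55). Of 34 extracellular matrix genes 3 rose, TIMP1, the protease ADAMTS1 (2.98 ± 0.74) and the integrin ITGB1 (0.56), and MFAP5 fell (-1.71), with a median of -0.05. With either naive array left out these 4 lists had 0 to 1 rises each, and the falls of the adhesion and coagulation list numbered 0 and 1. The stromal list had 0 rises without the CO array of donor 6 or 7, 1 without that of donor 5 and 4 without that of donor 8. PECAM1 lost its call without the CO array of donor 5, 7 or 8, and the matrix list had 5 rises without the untreated 4 h array of donor 1. The adhesion and coagulation list had 1 rise without the CO array of donor 5 or 6, 2 without that of donor 7 or with median centring, 7 without the untreated 4 h array of donor 1, and 3 falls without the CO array of donor 6. With the fit held to the compared groups alone, the adhesion and coagulation, endothelial marker, stromal and matrix lists had 8, 3, 4 and 11 rises. VEGFA stood at 6.54, 7.19, 7.16 and 7.97 in the grafts against 7.98 and 7.70 in naive kidneys and did not pass in that probe set (adjusted p = 0.364), while another of its probe sets fell by 0.90 and passed (adjusted p = 0.0194). NOS2 stood at 2.81, 2.76, 2.77 and 2.98 in the grafts against 2.38 and 3.05 in naive kidneys and overlapped.

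Of 8 erythroid and platelet markers 0 passed, and 0 had an unadjusted p under 0.05. Of 12 adrenal and fat markers LPL fell (-1.57 ± 0.28; not called with naive array 1 left out) and SCD rose (1.43 ± 0.42; not called with either naive array or the CO array of donor 5 or 7 left out), and STAR, CYP11A1, CYP17A1 and ADIPOQ were below background in both groups. Of 51 cytosolic ribosomal protein genes 5 rose by 0.49 to 0.98, 1 fell (RPS28, -0.62, while its 2 other probe sets changed by 0.18 and 0.45 and did not pass) and the median was 0.09, and with either naive array left out 0 passed in either direction. There were 2 rises without the CO array of donor 5, 6 or 7 or with median centring, and RPS28 lost its call without that of donor 5, 7 or 8.

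The same-time comparison asks whether these grafts differed from untreated grafts of the same 4 donors. Against the untreated 24 h grafts 0 of 23999 probe sets passed (0.0%; limma, smallest adjusted p 0.9999, 281 or 1.17% at an unadjusted p under 0.05). With donor as a fixed block 0 passed as well, with 693 at an unadjusted p under 0.05. MMP7 was at 11.38, 10.88, 10.87 and 10.99 in CO-treated and 11.46, 11.53, 10.48 and 11.39 in untreated grafts, and MIOX at 7.71, 7.25, 6.87 and 8.67 in CO-treated and 7.43, 6.02, 7.41 and 8.05 in untreated grafts, with overlap in both genes. The difference between CO-treated and untreated grafts was -0.18 (95% interval -1.57 to 1.20) for MMP7, 0.40 (95% interval -0.44 to 1.24) for MIOX and -0.31 (95% interval -1.04 to 0.41) for HMOX1, and these intervals do not show that the grafts were alike. Both comparisons with naive kidneys share the 2 naive arrays.

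Over the 6765 named genes 0.65% were higher and 0.31% lower than in untreated grafts at an unadjusted p under 0.05. LRP2 stood at 7.81, 7.31, 7.75 and 8.56 in CO-treated grafts against 6.12, 6.33, 7.88 and 6.95 in untreated ones, a difference of 1.04 (95% interval 0.21 to 1.86) (unadjusted p = 0.0173), while another LRP2 probe set differed by 0.74 (95% interval -0.15 to 1.62). SLC17A1, a phosphate and urate transporter of the proximal tubule, stood at 5.54, 5.25, 5.49 and 6.14 in CO-treated grafts against 4.65, 4.35, 5.22 and 3.98 in untreated ones, higher in 4 of 4 donors, a difference of 1.05 (95% interval 0.29 to 1.82) (unadjusted p = 0.00966). In the other direction PIK3AP1, an adaptor of B cell and macrophage signalling, stood at 4.17, 4.84, 4.49 and 4.08 in CO-treated grafts against 5.08, 4.91, 4.92 and 5.29 in untreated ones, lower in 4 of 4 donors, a difference of -0.65 (95% interval -1.03 to -0.28) (unadjusted p = 0.00209). Its other probe set, the brighter one, differed by -0.55 (95% interval -1.10 to 0.01). TP53I3, a p53-induced oxidoreductase, differed by 0.54 (95% interval 0.15 to 0.93). Of 16 proximal tubule transporters 2 had an unadjusted p under 0.05, LRP2 and the glucose transporter SLC5A1 (1.40), both higher, and of 31 granulocyte and macrophage genes 2, CTSS (-0.55) and the oxidase subunit NCF1 (-0.72), both lower. Per donor, the mean level of granulocyte and macrophage genes was lower in the CO graft than in the untreated graft in 4 of 4 donors, by a mean of -0.31 (SD 0.23, n = 4 donors). In donors 5 and 6 the CO and untreated arrays have different file dates, so CO and date cannot be told apart in these pairs. Donor 5 had the largest difference in granulocyte and macrophage genes (-0.57) and in proximal tubule transporters (0.79). The proximal tubule transporters were higher in the CO graft in 3 of 4 donors, by a mean of 0.47 (SD 0.41), the enzymes in 3 of 4 by 0.46 (SD 0.48), fatty acid oxidation genes in 4 of 4 by 0.20 (SD 0.19), and lipid, retinol and plasma carrier genes in 4 of 4 by 0.28 (SD 0.19). Of the 35 lists 3 had 1 direction in all 4 donors, the granulocyte and macrophage, fatty acid oxidation and plasma carrier lists. That is no more than random signs in 4 donors would give. For fatty acid oxidation genes the difference was only 0.02 in donor 6 and 0.08 in donor 7. Of these 29 genes 1 had an unadjusted p under 0.05 (limma), and it was lower in the CO-treated grafts. None of these single genes passed the adjusted test, and the list differences are descriptions with no test.

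**Figure D3:**
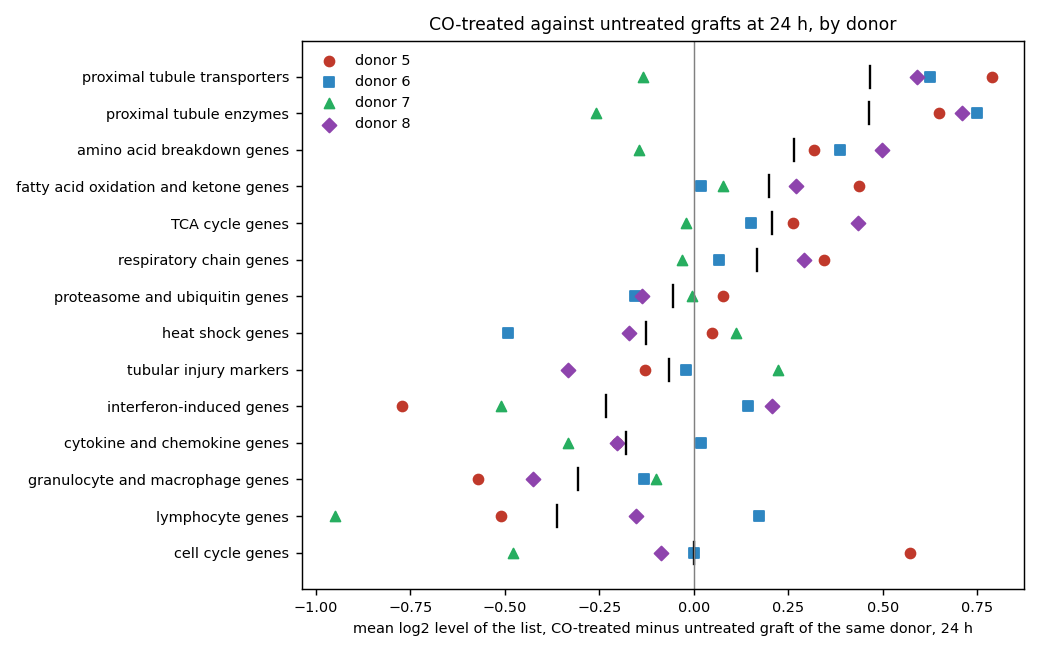
Difference of the mean log2 level of each gene list between the CO-treated and the untreated graft of the same donor at 24 h, with 1 point for each of donors 5 to 8 and a black bar for their mean. Points of granulocyte and macrophage genes lie below 0 in 4 of 4 donors, and those of the proximal tubule lists lie above 0 in 3 of 4. The arrays of a pair have different file dates in donors 5 and 6.

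Against CO-treated grafts at 4 h, from donors 1 to 4, 4226 probe sets were called (17.6%), 2440 higher (10.2%) and 1786 lower (7.44%) at 24 h. With each array centred on its median the split was 2075 higher and 2179 lower, so which direction held more calls depends on the scaling. With the file date as a fixed block 0 passed (2177 at an unadjusted p under 0.05, limma), and the count was 2720 without the CO 4 h array of donor 1. Heat shock genes were lower at 24 h in 16 of 22 cases and higher in 0, with 8.51% of all named genes lower. BAG3, an HSP70 co-chaperone, stood at 4.74, 5.72, 4.99 and 4.87 at 24 h against 9.68, 7.19, 9.36 and 10.17 at 4 h, a difference of -4.02 ± 0.63 (adjusted p = 0.00072), and HSPA6, an inducible HSP70, at 5.88, 5.36, 4.83 and 5.69 at 24 h against 10.74, 8.12, 11.04 and 10.95 at 4 h (-4.77 ± 1.38, adjusted p = 0.0257). BAG3 at 24 h overlapped the naive arrays (6.08 and 5.50), and HSPA6 was above them (3.47 and 2.45) without passing against naive.

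Cell cycle genes were higher at 24 h than at 4 h in 14 of 24 cases and lower in 0, with 17.9% of all named genes higher. MCM2 stood at 4.16 and 4.30 in naive kidneys, at 4.09, 4.27, 3.62 and 3.54 in CO grafts at 4 h and at 6.97, 7.31, 7.07 and 6.20 in CO grafts at 24 h. NQO1 stood at 6.53 and 6.35 in naive kidneys, at 5.80, 6.15, 6.15 and 5.69 at 4 h and at 9.81, 8.57, 9.09 and 8.48 at 24 h, below the naive arrays at 4 h and above them at 24 h. KDELR3, a retrieval receptor of the endoplasmic reticulum, was 3.83 ± 0.58 higher at 24 h, and UBD, a ubiquitin-like modifier induced by interferon, 3.54 ± 0.60 higher. Antigen presentation genes were higher at 24 h in 12 of 25 cases, granulocyte and macrophage genes in 11 of 31, interferon-induced genes in 6 of 23 and proteasome genes in 17 of 33, with 2 lower. Proximal tubule enzymes were lower at 24 h than at 4 h in 15 of 20 cases and transporters in 7 of 16, with 1 transporter higher. CYP2A19 (-5.23 ± 1.24) and PDK4 (-4.79 ± 0.76 in the probe set of largest difference) led the lower side. Donors differ between the 2 times, so time and animal cannot be told apart.

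**Figure D4:**
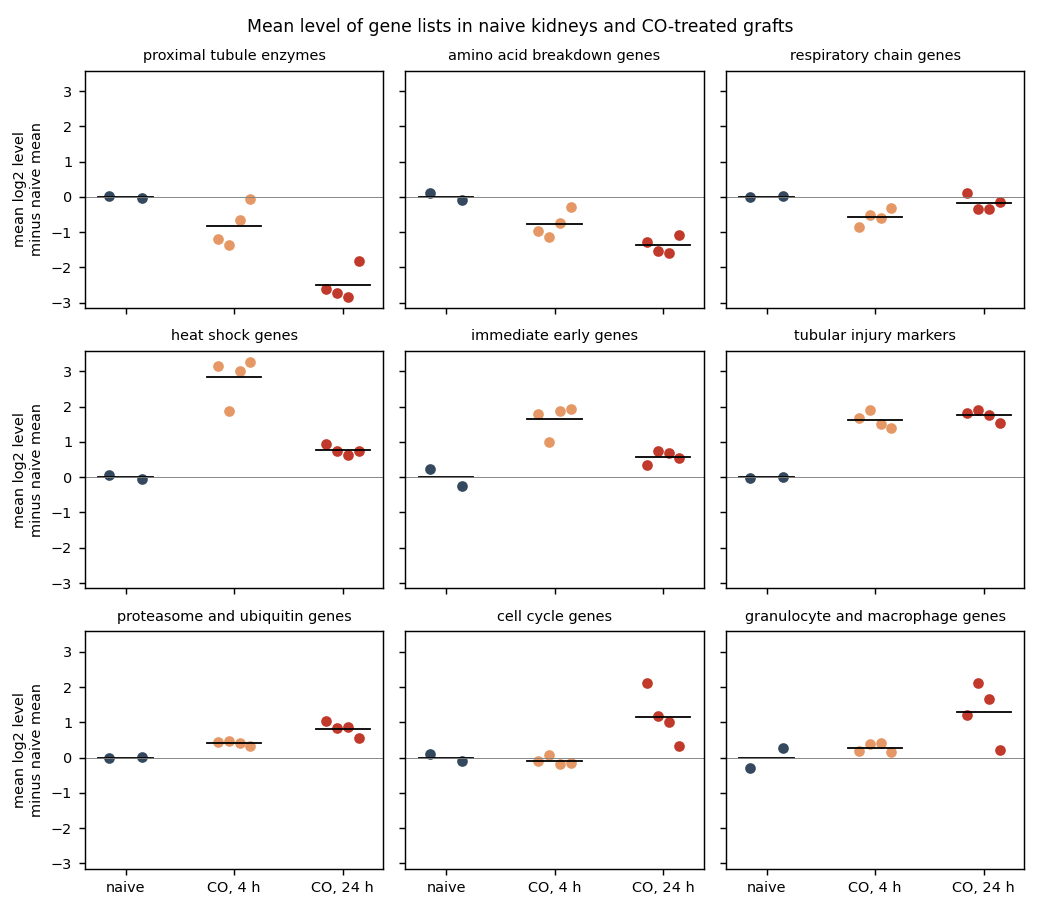
Mean log2 level of gene lists above the naive mean in each array, in the order naive, CO 4 h and CO 24 h, with lines at the group means. Heat shock genes are highest at 4 h, from 1.88 to 3.27 against 0.64 to 0.93 at 24 h.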

How the data were processed

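RNA of 18 pig kidneys was measured on Affymetrix pig arrays with a biotin label. The deposited log2 values per probe set were summarised and normalised by the authors with RMA, per the submitters' processing notes, and the version and settings are not given in the sources used here. Values ran from 0.226 to 13.46 with array medians of 3.75 to 3.94, and none was missing. Precision is set by the number of arrays, as hybridisation signals carry no counts. Of 24123 probe sets 124 controls were left out. Of the 23999 tested, 10069 had 1 gene symbol in the platform annotation, 198 several and 13732 none, and 9961 matched a RefSeq gene ID (Sscrofa11.1). Background was the 95th percentile of 17 tag control probe sets (1.61). Folds called "at least" set the grafts against that level.

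Tests used limma 3.58.1 under R 4.3.3 (a group-means lmFit with eBayes moderation over all 18 arrays, two-sided, Benjamini-Hochberg over 23999 probe sets). Summaries and plots came from Python 3.11.15 with matplotlib 3.10.9. Nothing in the labels says that the naive arrays come from separate animals, so p-values there do not measure a spread between naive animals. They use a spread between arrays pooled within groups over all 18 arrays, mostly grafts, and assume that naive kidneys vary as grafts do. The 35 gene lists (1063 entries, 749 measured) and all named genes were chosen with earlier results of these data known. Named are the 12 largest rises and falls that passed without overlap, fixed genes, up to 4 called members of each list by size of change, and the leading genes of the other 2 comparisons; further list members were picked after their values were seen. The fit was tested on simulated data, with 50 changed probe sets of each size among 23999. For CO 24 h against naive it found 2% of changes of 0.5, 46% of changes of 1 and 94% of changes of 2. Against untreated 24 h grafts it found 10%, 60% and 96%, so many changes of 1 or less would not pass. Donor numbers pair CO-treated and untreated grafts at 24 h, since the labels give both kidneys the same donor: deviations from the group means correlated by 0.16, 0.347, 0.265 and 0.39 in donors 5 to 8. Alternatives covered variance model, filter, normalisation, array weights, file date, donor block (statmod 1.5.0), arrays in the fit and single arrays left out.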

Additional observations from a re-analysis of the deposited data

Results flagged for a closer look

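In 5 of 123 probe sets of named genes 1 CO 24 h array stood apart from the other 3 beyond Dixon's 95% critical value for 4 samples, and chance gives about 1 in 20. In 4 of the 5 it was the array of donor 8. NPM3, a nucleolar chaperone, was 6.06 there and 7.37 to 7.48 in the other CO grafts. VCAM1, an adhesion molecule, was 8.37 against 9.21 to 9.36, the ribosomal protein gene RPS28 was 10.52 against 10.97 to 11.01, and the fatty acid transporter SLC27A6 was 3.16 against 2.39 to 2.52. Of these, NPM3, VCAM1 and SLC27A6 lay on the side of the naive arrays and RPS28 on the far side. PSMD14, a proteasome lid subunit, was 8.75 in donor 5 and 8.20 to 8.25 in the other CO grafts.

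The changes of CO-treated grafts from naive kidneys differed between 24 h and 4 h in 4226 probe sets, by the limma test of CO 24 h minus CO 4 h. The largest differences upward were those of KDELR3 (3.83), the chemokine CCL19 (3.55), UBD (3.54), FAM26F (3.47) and the fatty acid binding protein FABP5 (3.41). The largest downward were those of CYP2A19 (-5.23), the pyruvate dehydrogenase kinase PDK4 (-4.79), and the chaperone genes HSPA6 (-4.77), DNAJA4 (-4.74) and BAG3 (-4.02). All 10 passed the adjusted test, and CO 24 h and CO 4 h arrays share no donor and no file date.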

How the results depend on the processing

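The count of probe sets called between CO 24 h grafts and naive kidneys (2804) was 6224 with array weights, 0 with the file date as a fixed block, and 459 to 3486 when 1 array was left out, lowest without naive array 1. It was 2772 to 3496 under the other alternatives, among them 2860 with donor as a random replicate block. Against CO 4 h grafts (4226) it was 6934 with array weights, 0 with the date block and 2720 to 4860 with 1 array left out. Against untreated 24 h grafts it was 0 under every alternative run, with 199 to 835 probe sets at an unadjusted p under 0.05 (limma). There the donor pairing as a fixed block gave 0 (693 unadjusted), as a random block 0 (431), and a comparison within 1 file date 0 (544); the donor block changed no call. Leaving out the untreated 4 h array of donor 1 (3486 and 4860) was chosen after the data were seen.

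Of 123 named probe sets 110 passed. All 110 lost the call with the date block, 81 without naive array 1, 60 without naive array 2, 7 to 25 without 1 CO array, 12 when the fit held the compared groups alone, 6 with median centring and 3 with quantile normalisation, and none of these changed direction. Calls were also read in other probe sets of the same gene. In other probe set 1, 16 of 35 kept the call, 12 lost it and 7 turned direction. In other probe set 2, 7 of 14 kept it, 5 lost it and 2 turned. In other probe set 3, 2 of 2 lost it. Losses included CD163 (1.31, limma, adjusted p = 0.273), DUSP6 (0.84, 0.105) and ARG2 (-0.02, 0.966), while another ARG2 probe set passed (-2.08). The direction turned for RBP4 (-0.95), DPYS (0.0183), CYP2D25 (0.23), HIF1A (-0.0842), LBP (-0.0707), MCM2 (-0.11), TYMS (-0.24), RPS28 (0.18 and 0.45) and NOS2 (-0.0805). Of these probe sets, that of DPYS was below background in both groups and that of HIF1A in all CO 24 h grafts. Not called in the first place, TNF turned to -0.12 with the date block, and NOS2 to -0.23 with it and to -0.22 without naive array 1. The cause was not tested. With 2 naive arrays the median standard error of the 2804 changes was 0.281, and for genes below background in a group the array gives only a bound.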
